A study of Homo sapiens with 8 samples.

Results

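The combination of long-term AsiDNA treatment and belinostat was set against the solvent DMSO across all expressed genes of U87 cells, an established human glioblastoma line. The comparison was chosen by the labels alone and used 4 of the 8 libraries in the series. The 2 combination libraries came from cells under long-term AsiDNA treatment that were also given 1 µM belinostat for 24 h, and the 2 DMSO libraries came from cells given the solvent. The other libraries, 2 with belinostat alone and 2 with AsiDNA alone, entered the fit as a source of the spread between replicates and are quoted only beside the combination. No source used here gives the dose or the duration of AsiDNA. The labels' protocols speak of 2 stocks of these cells, MTU87 and LTAU87, without tying a stock to a library. The groups differ in both agents, so what each agent contributed cannot be told apart in this comparison. The labels do not say whether replicates came from separate cultures, so every p-value reflects no more than the spread among these libraries, and that spread may be technical. Adjusted p-values are from edgeR's quasi-likelihood test with Benjamini-Hochberg adjustment over all tested genes.

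AsiDNA is a short double-stranded DNA that looks like a broken end to the cell and draws repair enzymes such as DNA-PK and PARP away from real breaks. Belinostat is a hydroxamic acid that blocks zinc-dependent histone deacetylases, so that acetyl groups build up on histones and other proteins. Blocking these enzymes is known to raise some silent genes, to lower many active ones and to slow the cell cycle in cultured tumour cells.

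The libraries held 6426752 and 8335614 counts in the combination and 9699637 and 9220207 counts in DMSO. A count of 3 corresponded to between 0.292 and 0.508 CPM (counts per 1000000 counts). CDKN2A, CDKN2B, CDKN2C and MTAP had 0 counts in all 8 libraries, and the glial filament gene GFAP had 0 counts in the combination and 8 in DMSO. The astrocyte channel gene AQP4 was at 0 as well, and the glial glutamate transporter gene SLC1A3 had 52.1 and 54.4 CPM in the combination and 52.8 and 46.98 CPM in DMSO. Of the markers of other cell types, PTPRC, CD3E and LYZ of immune cells and CDH5 and CLDN5 of endothelium were at 0 in the 4 libraries. The summed level of 8 immune markers was 6.17 to 6.40 CPM in the combination and 20.1 to 20.9 CPM in DMSO, most of it from CSF1R, and that of 5 endothelial markers was 13.7 to 16.9 CPM in the combination and 6.14 to 7.07 CPM in DMSO, most of it from PECAM1. The endothelial marker TEK was called lower, with 0.167 and 0.384 CPM in the combination and 1.92 and 0.975 CPM in DMSO. The sum of 6 markers of the mesenchymal form of glioblastoma was 49650 to 49818 CPM in the combination and 25981 to 31330 CPM in DMSO, with FN1 the largest part.

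The 2 DMSO libraries differed from each other more than the replicates of any other group. Of 8142 genes with a mean log2 CPM of at least 4, 11.1% differed by more than 1.5-fold between the DMSO libraries, against 0.54% between the combination libraries, 0.786% between the belinostat libraries and 0.184% between the AsiDNA libraries. The nuclear RNAs MALAT1 and NEAT1 together took 3.12% and 2.06% of counts in the combination, against 0.911% in DMSO-1 and 2.81% in DMSO-2. Sense-intronic genes, transcribed from introns of other genes on the same strand, took 0.0561% and 0.0440% in the combination, against 0.0570% in DMSO-1 and 0.113% in DMSO-2. Replication-dependent histone genes took 0.154% and 0.169% in the combination, against 0.404% in DMSO-1 and 0.243% in DMSO-2. Every comparison below was therefore also made against DMSO-1 alone and against DMSO-2 alone. The part that these shares have in the differences was not tested, other than by a fit with the sense-intronic share as a term.

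Values are CPM of each library, scaled by TMM factors, and a positive log2 fold change, given ± its standard error, means a higher level in the combination. A gene was called when its adjusted p was under 0.05. Of 14741 tested genes, 3586 (24.3%) were called higher and 3498 (23.7%) lower in the combination than in DMSO, 48.1% in all. The median log2 fold change over all tested genes was -0.01. The spread in this fit is pooled over all groups, and the DMSO pair differed more than the others. A fit of the 4 compared libraries alone called 2681 genes higher and 2904 lower. Changes of at least 2-fold were called in 1565 genes upward and 1677 downward, and changes of at least 8-fold in 180 and 108. Against DMSO-1 alone 3868 genes (26.2%) were higher and 3769 (25.6%) lower, and against DMSO-2 alone 4437 (30.1%) were higher and 4244 (28.8%) lower. Without combination replicate 2 the count of higher genes was 2300. Scaling by library size alone, which moved the median of all genes to -0.20, put 36.6% of the calls on the higher side, against 50.6% with TMM factors.

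A fit with 1 DMSO library takes its spread from the other groups, so its calls do not reflect the difference between the DMSO libraries. A call is said below to hold against each DMSO library when the gene was called in the same direction against both libraries together, against DMSO-1 alone and against DMSO-2 alone. This was so for 3135 genes that were higher (21.3%) and 2820 that were lower (19.1%), or 40.4% of all tested genes. They made up 87.4% of the higher and 80.6% of the lower calls. The other 1129 calls were missing against at least 1 of the DMSO libraries alone, and 90 genes were called in opposite directions against the 2 libraries. Both combination libraries lay above both DMSO libraries in 5263 genes (35.7%) and below both in 5189 (35.2%). Belinostat alone gave 4395 higher (29.8%) and 4071 lower genes (27.6%) against the same DMSO libraries, and AsiDNA alone gave 0 higher (0%) and 3 lower (0.0204%). The spread between the DMSO libraries enters these fits, so changes with AsiDNA alone may have been missed. Set against belinostat alone, the combination was higher in 3237 genes (22%) and lower in 3161 (21.4%).

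**Figure D1:**
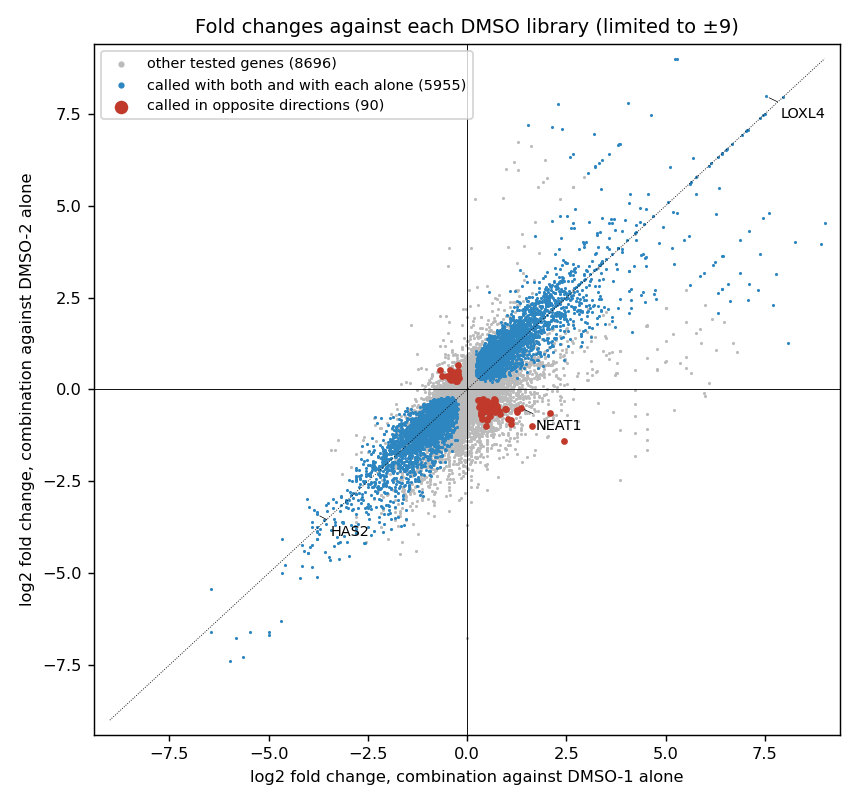
Log2 fold change of each tested gene in the combination against DMSO-1 alone (x axis) and against DMSO-2 alone (y axis), with the 5955 genes called together and against each library in blue and the 90 called in opposite directions in red. LOXL4 and HAS2 lie far from 0 on both axes, and NEAT1 is above 0 against DMSO-1 and below 0 against DMSO-2.

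The largest rise among genes with a mean log2 CPM of at least 2 was in LOXL4, a lysyl oxidase that crosslinks collagen and elastin (ENSG00000138131, chr10:98247690-98268250 on GRCh38). It had 153 and 151 CPM in the combination libraries, against 0.808 and 0.585 CPM in the DMSO libraries, a log2 fold change of 7.74 ± 0.24 (adjusted p = 5.94e-10). Both combination libraries were far above both DMSO libraries, where the gene was close to the floor of 3 counts. The synaptic vesicle protein gene SYP had 66.2 and 74.4 CPM in the combination and 1.41 and 1.46 CPM in DMSO (5.60 ± 0.20, adjusted p = 9.31e-10). VSIR, which encodes the immune checkpoint protein VISTA, had 43.4 and 35.98 CPM in the combination and 0.707 and 0.975 CPM in DMSO (5.53 ± 0.25, adjusted p = 8.52e-09). These genes were low in both DMSO libraries and clearly counted in both combination libraries.

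The other large rises were of genes with varied roles. The ubiquitin ligase subunit gene FBXO32, known from muscle wasting, had 635 and 629 CPM in the combination, against 30.9 and 20.6 CPM in DMSO (4.62 ± 0.18). UNC13A, which primes synaptic vesicles, had 29.4 and 20.2 CPM in the combination and 0.303 and 0.877 CPM in DMSO (5.34 ± 0.40). The focal adhesion gene TES had 88.1 and 97.1 CPM in the combination and 4.85 and 4.19 CPM in DMSO (4.35 ± 0.17). In each of these genes both DMSO libraries were below the combination, a separation that the choice of genes required. CCDC69 (4.88 ± 0.32), the GABA transaminase gene ABAT (4.44 ± 0.31), the endoplasmic reticulum gene REEP6 (4.26 ± 0.30), the phosphatase gene PPM1J (4.09 ± 0.26) and the synaptotagmin gene SYT13 (3.99 ± 0.24) completed the 12 largest rises, together with the metallothionein MT1X described below. Adjusted p lay between 5.94e-10 and 4.28e-07 for these 12 genes.

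The largest fall was in PLEKHG4B, a guanine nucleotide exchange factor, with 3.504 and 3.46 CPM in the combination and 62.7 and 65.6 CPM in DMSO (-4.20 ± 0.20, adjusted p = 1.09e-08). HAS2, the main synthase of hyaluronan (chr8:121612116-121641390 on GRCh38), had 13.5 and 19.6 CPM in the combination and 234 and 178 CPM in DMSO (-3.62 ± 0.20, adjusted p = 4.25e-08). The cytokine gene IL11 had 24.4 and 30.1 CPM in the combination and 317 and 270.00 CPM in DMSO (-3.42 ± 0.17, adjusted p = 2.14e-08). The libraries of each group stood close together in these 3 genes, with the combination well below DMSO. ADAMTS1, a secreted metalloprotease, had 37.9 and 45.8 CPM in the combination and 389 and 420.2 CPM in DMSO (-3.27 ± 0.14). APOBEC3B, a cytidine deaminase that edits DNA, had 2.34 and 2.43 CPM in the combination and 25.05 and 19.01 CPM in DMSO (-3.20 ± 0.25), and some of its reads may be shared with other APOBEC3 genes.

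The remaining large falls included the reductase gene FAR2 (-3.60 ± 0.36), the scaffold genes MPP3 (-3.46 ± 0.40) and MPP4 (-3.40 ± 0.24), the matrix glycoprotein gene TNXB (-3.60 ± 0.27), MROH6 (-3.26 ± 0.53), the pseudogene transcript RPSAP52 (-3.85 ± 0.21) and the small nucleolar RNA SNORD12B (-3.33 ± 0.45). The values of TNXB and RPSAP52 are less certain because both have close copies elsewhere in the genome, and that of SNORD12B because it lies within a host gene. MROH6 had 2.002 and 1.28 CPM in the combination, against 7.07 and 23.8 CPM in DMSO, so that its fold change was -2.13 against DMSO-1 alone and -3.88 against DMSO-2 alone. DMSO-2 was the higher library of the pair for MROH6, MPP3, MPP4 and SNORD12B and the lower one for HAS2, FAR2, IL11 and APOBEC3B.

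**Figure D2:**
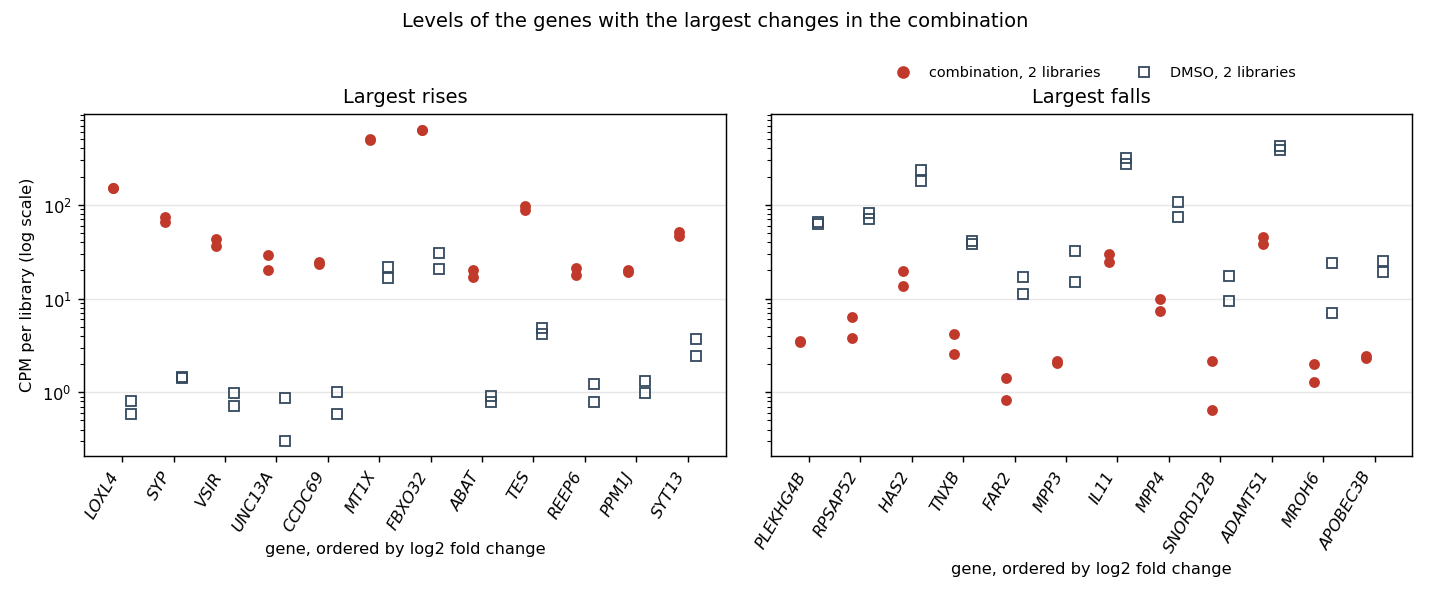
Level of the 12 genes with the largest rises (left panel) and the 12 with the largest falls (right panel) in CPM on a log axis, 1 point per library, with filled circles for the combination and open squares for DMSO. The choice of genes required groups that do not overlap, and the gap is widest for LOXL4, with 153 and 151 CPM in the combination and 0.808 and 0.585 CPM in DMSO.

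Of genes with 3 counts or fewer over both DMSO libraries, 2 had at least 100 counts over both combination libraries. DNAI1, which encodes a dynein chain of motile cilia, had 53 and 60 counts in the combination and 2 and 0 counts in DMSO, a ratio of 82.5 after scaling (95% exact interval for counting error 22.3 to 690). GPRIN3 had 47 and 56 counts in the combination and 2 and 1 counts in DMSO, a ratio of 50.1 (16.7 to 247). DNAI1 was higher still with belinostat alone, where the 2 libraries held 507 counts, and GPRIN3 had 121 counts there.

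Genes were next described by function in lists. Counts for a list are to be read beside the shares over all tested genes, 24.3% higher and 23.7% lower. Unless stated otherwise they are calls against both DMSO libraries together, and not all of them held against each library alone. The share of members called varied between whole lists, from 100% lower in G2 and mitosis to 75% higher in metallothioneins and in hypoxia and glycolysis. Members that were too low to be tested are left out of these shares, and a low gene can pass the filter on low counts through the group where it is high. Members named for a list are mostly those with the smallest adjusted p, a choice that favours groups that do not overlap. Over all tested genes, both combination libraries lay above both DMSO libraries in 35.7% and below both in 35.2%. Scaling by library size alone lowered list medians along with that of all genes, and it turned several medians that were close to 0 with TMM factors below 0. Of the lists reported here these were replacement histone variants (-0.18), nucleotide excision repair (-0.09), matrix assembly (-0.05), mesenchymal and YAP-TEAD genes (-0.11), neural stem and glial genes (-0.16), heat shock proteins (-0.16), the unfolded protein response (-0.09) and antigen presentation (-0.12).

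**Figure D3:**
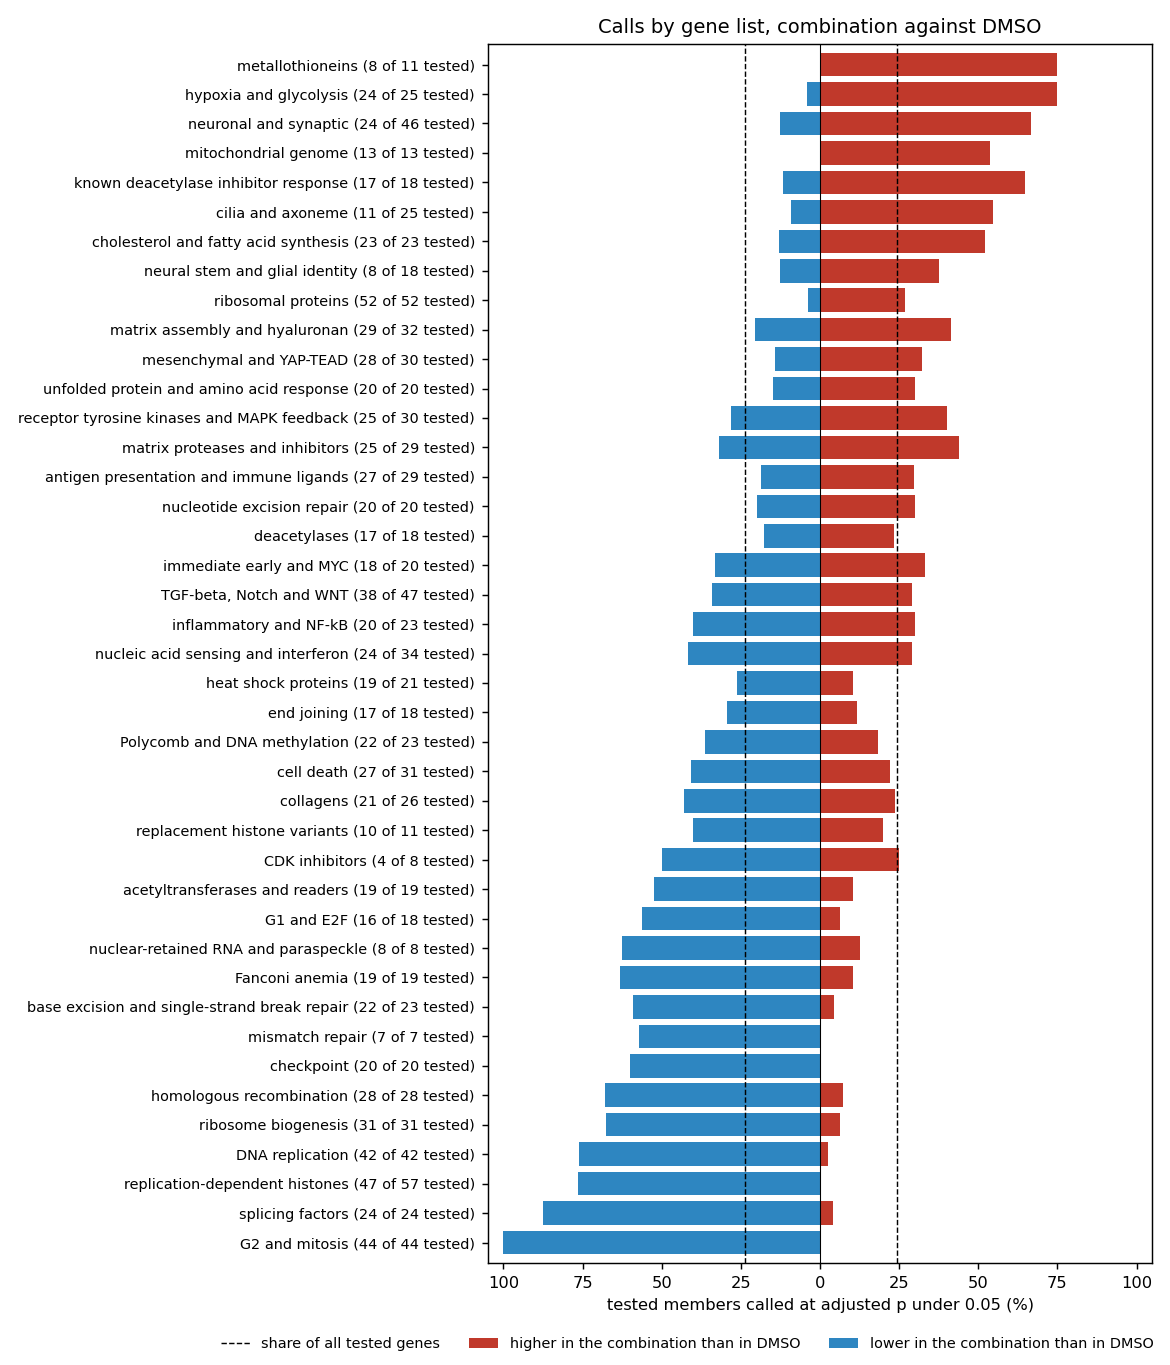
Share of the tested members of each list called higher (red, to the right of 0) or lower (blue, to the left) in the combination than in DMSO, at an adjusted p under 0.05. Dashed lines mark the shares over all tested genes, 24.3% higher and 23.7% lower. G2 and mitosis, splicing factors, replication-dependent histones and DNA replication lie farthest to the left, and metallothioneins, hypoxia and glycolysis, and neuronal and synaptic genes farthest to the right.

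Genes that drive cells through G2 and mitosis were lower in the combination, without exception in this list. All 44 tested members were called lower, 43 of them against each DMSO library, with a median log2 fold change of -1.31 (-1.42 against DMSO-1 alone and -1.20 against DMSO-2 alone). The proliferation marker MKI67 (chr10:128096659-128126385 on GRCh38) had 175 and 146 CPM in the combination and 753 and 780.2 CPM in DMSO (-2.25 ± 0.13, adjusted p = 8.17e-08). ASPM, which organizes spindle poles (chr1:197084128-197146694 on GRCh38), had 164 and 173 CPM in the combination and 782 and 711 CPM in DMSO (-2.15 ± 0.12, adjusted p = 6.55e-08). Both combination libraries were near each other and well below both DMSO libraries in these genes, which their choice by small adjusted p favoured. The kinesin KIF20A, needed for cytokinesis, had 54.4 and 60.1 CPM in the combination and 254 and 213 CPM in DMSO (-2.03 ± 0.14). The mitotic cyclin CCNB1 had 76.6 and 96.8 CPM in the combination and 374 and 292 CPM in DMSO (-1.94 ± 0.15). The smallest change in the list was that of the centrosomal kinase NEK2 (-0.43 ± 0.15, adjusted p = 0.0315), the member that did not hold against DMSO-2 alone (-0.28) and that was named after its value was seen. In bulk RNA, fewer cells in a phase of the cycle and less RNA per cell cannot be told apart.

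Many G2 and mitosis genes are known to carry, close to their start, the CCAAT box bound by NF-Y and the CHR element TTTGAA bound by the DREAM complex. The promoters of ASPM and MKI67 are shown because these 2 genes had the smallest adjusted p of the list. A match of both CCAAT and TTTGAA was a further condition of this choice. Capitals mark each match of CCAAT and TTTGAA on either strand (the reverse strand reads ATTGG and TTCAAA). The sequences are RefSeq promoters of GRCh38.p14, kept to the bases before the annotated gene start.
ASPM: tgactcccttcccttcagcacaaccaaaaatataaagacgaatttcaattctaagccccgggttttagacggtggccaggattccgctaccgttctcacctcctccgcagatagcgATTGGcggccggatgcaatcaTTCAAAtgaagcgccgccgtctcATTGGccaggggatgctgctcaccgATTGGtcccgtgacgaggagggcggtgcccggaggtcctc
MKI67: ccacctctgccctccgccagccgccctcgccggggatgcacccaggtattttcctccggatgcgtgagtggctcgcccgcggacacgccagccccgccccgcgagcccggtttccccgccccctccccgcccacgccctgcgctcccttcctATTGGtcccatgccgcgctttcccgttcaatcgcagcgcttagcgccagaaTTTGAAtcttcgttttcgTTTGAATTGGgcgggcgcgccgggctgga
The ASPM stretch (chr1:197146695-197146919, minus strand) holds 3 CCAAT matches and 1 TTTGAA match, which lies between the first and the second CCAAT match. The MKI67 stretch (chr10:128126424-128126673, minus strand) holds 2 of each, and its last TTTGAA match overlaps a CCAAT match. A promoter was found for 39 of the 44 genes. In the 250 bases before the RefSeq start, CCAAT occurred in 29 of these 39 (74.4%), against 33% of all 27305 promoters and 35.8% of those of tested genes. TTTGAA occurred in 19 (48.7%), against 13.6% of all promoters and 8.8% of those of tested genes, and both together in 17 (43.6%), against 4.85% and 3.69%. A match is a description of these letters and was not tied to binding of a factor.

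DNA replication genes were lower too. Of 42 tested members 32 were called lower and 1 higher, all 33 against each DMSO library (median -0.89). All 6 genes that supply nucleotides fell. Thymidylate synthase TYMS had 20.7 and 15.1 CPM in the combination and 103 and 90.9 CPM in DMSO (-2.45 ± 0.18, adjusted p = 4.28e-07), and the ribonucleotide reductase subunit RRM2 had 247 and 279 CPM in the combination and 977 and 708 CPM in DMSO (-1.68 ± 0.15). UHRF1, which reads newly replicated DNA for maintenance methylation, had 35.5 and 31.5 CPM in the combination and 136 and 155 CPM in DMSO (-2.12 ± 0.13). The origin subunit ORC6 had 14.02 and 16.6 CPM in the combination and 46.1 and 56.6 CPM in DMSO (-1.74 ± 0.16). For each of these genes the groups were apart by more than the spread within either pair, which their choice by small adjusted p favoured. The exception was the primase subunit PRIM2 (0.37 ± 0.14, adjusted p = 0.0461), which was named after its value was seen. The TTTGAA letters occurred in 1 of 35 promoters of this list (2.86%) and CCAAT in 19 (54.3%).

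Among genes that act before S phase, 9 of 16 were lower and 1 higher (median -0.62). The transcription factors E2F8 (-1.96 ± 0.19), E2F1 (-1.19 ± 0.13) and E2F2 (-1.22 ± 0.14) fell against each DMSO library. CCND1, the D-type cyclin that starts the passage through G1, had 435 and 433 CPM in the combination and 1226 and 891 CPM in DMSO (-1.28 ± 0.15, adjusted p = 1.75e-05). Its relative CCND3 was the member that rose (0.92 ± 0.23, adjusted p = 0.00477), named after its value was seen. CCND1 was -2.78 with belinostat alone against the same DMSO libraries, and the combination was higher than belinostat by 1.499 (adjusted p = 0.00023).

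Inhibitors of cyclin-dependent kinases were few: 4 of 8 could be tested. CDKN3, which is itself expressed late in the cycle, fell (-1.21 ± 0.15, adjusted p = 2.21e-05). CDKN1B, encoding p27, had 53.4 and 57.1 CPM in the combination and 43.9 and 37.4 CPM in DMSO (0.44 ± 0.13, adjusted p = 0.0145), a call that was lost without combination replicate 2 (0.33), with library size alone (0.26), with no filter (0.35), with the 4 libraries alone (0.40) and with the sense-intronic term (0.29). CDKN1A, encoding the kinase inhibitor p21 and raised by deacetylase inhibitors in many cell types, had 87.3 and 83.4 CPM in the combination and 127 and 98.7 CPM in DMSO (-0.40 ± 0.14, adjusted p = 0.0289). It was called lower against DMSO-1 alone (-0.57) and not against DMSO-2 alone (-0.21), nor without either combination library (-0.46 and -0.43). CDKN2D was at -0.33 ± 0.16 (adjusted p = 0.104) and was called lower against DMSO-1 alone (-0.50).

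Replication-dependent histone genes, which supply the histones of S phase from clustered copies and whose messages lack a poly(A) tail, were lower in the combination. Of 57 listed genes 47 could be tested, of which 36 were called lower and 0 higher, 28 of them against each DMSO library. H2BC17 had 17.9 and 19.6 CPM in the combination and 82.1 and 49.2 CPM in DMSO (-1.81 ± 0.21, adjusted p = 1.41e-05). H2BC11 had 11.2 and 14.98 CPM in the combination and 75.9 and 36.9 CPM in DMSO (-2.09 ± 0.28), and H2AC11 had 36.5 and 40.5 CPM in the combination and 133 and 78.2 CPM in DMSO (-1.45 ± 0.20). In each, DMSO-1 was the highest library and DMSO-2 lay between it and the combination. The size of the fall therefore moved with the DMSO library used: the median was -1.16 against both, -1.52 against DMSO-1 alone, where 46 genes were lower, and -0.65 against DMSO-2 alone, where 28 were lower and 5 higher. These genes are close copies of each other, and the value of any single one is uncertain.

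With belinostat alone the histone median was -3.08 against the same DMSO libraries. The combination was higher than belinostat in 46 of the 47 histone genes and lower in 0, with a median difference of 1.97. Over all tested genes 22% were higher and 21.4% lower in that comparison. H2BC17, for example, was higher in the combination than with belinostat by 2.55 (adjusted p = 0.000271). Histone variants that are made outside S phase moved in both directions. H2AJ, a variant of H2A, had 6.84 and 7.299 CPM in the combination and 1.01 and 0.682 CPM in DMSO (3.04 ± 0.51). The centromere variant CENPA (-1.74 ± 0.16) and H2AZ1 (-1.24 ± 0.15) fell. Of the 10 variants tested, 2 were called higher and 4 lower.

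**Figure D4:**
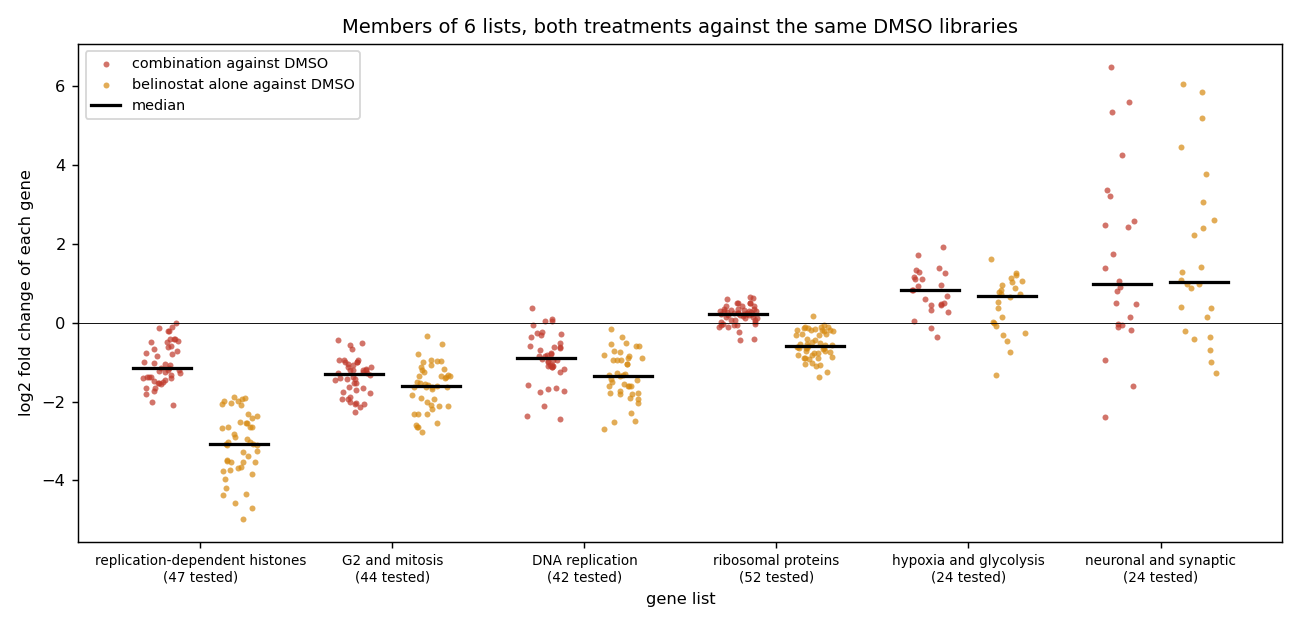
Log2 fold change of each tested member of 6 lists against DMSO, in the combination (red) and with belinostat alone (orange), with the median as a bar. Both contrasts use the same DMSO libraries. Histone medians were -1.16 in the combination and -3.08 with belinostat alone, ribosomal protein medians 0.22 and -0.58, and those of the other 4 lists had the same sign in both. The highest red point, SYN1, is a fitted value of a gene with 0 counts in DMSO.

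Homologous recombination, which repairs breaks from a sister chromatid, had 19 of 28 members lower and 2 higher (median -0.83). BRCA1 had 46.4 and 46.2 CPM in the combination and 114 and 118 CPM in DMSO (-1.33 ± 0.12, adjusted p = 1.84e-06). The nuclease genes GEN1 (-1.69 ± 0.18) and DNA2 (-1.55 ± 0.18) and XRCC2 (-0.96 ± 0.13) fell as well. All 19 lower calls held against each DMSO library. The 2 higher members, SFR1 (0.94 ± 0.25) and SWI5 (0.36 ± 0.14), form a complex of this pathway and were named after their values were seen. Not both of these higher calls held against each DMSO library.

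End joining, the pathway of DNA-PK that AsiDNA is designed to engage, had 5 of 17 members lower and 2 higher (median -0.31), shares of 29.4% and 11.8% next to 23.7% and 24.3% over all tested genes. The catalytic subunit gene PRKDC had 976 and 1009.8 CPM in the combination and 1176 and 1038 CPM in DMSO (-0.16 ± 0.14, adjusted p = 0.372), and was called lower against DMSO-1 alone (-0.24). The Ku subunit XRCC5 had 396 and 439 CPM in the combination and 621 and 439.9 CPM in DMSO (-0.35 ± 0.15, adjusted p = 0.0731). DMSO-1 stood above the other 3 libraries, and the gene was called lower against DMSO-1 alone (-0.57) and not against DMSO-2 alone (-0.07). XRCC6, the other Ku subunit, had 259 and 281 CPM in the combination and 332 and 226 CPM in DMSO. It was called lower against DMSO-1 alone (-0.30) and higher against DMSO-2 alone (0.26), so that its direction depends on the DMSO library. Called members were the shieldin subunit SHLD2 (-1.77 ± 0.17), the polymerase POLQ of the alternative pathway (-0.94 ± 0.16) and the end-trimming nuclease DCLRE1C (-0.77 ± 0.16), which fell, and TP53BP1, which favours end joining over resection and rose (0.69 ± 0.11, adjusted p = 0.000255).

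Repair of damaged bases and single-strand breaks had 13 of 22 members lower and 1 higher (median -0.56). PARP1, the polymerase that senses such breaks, had 88.9 and 97.1 CPM in the combination and 157 and 128 CPM in DMSO (-0.61 ± 0.15, adjusted p = 0.00352). The glycosylases NEIL3 (-1.31 ± 0.18), TDG (-1.11 ± 0.17) and MUTYH (-1.33 ± 0.23) and the ligase LIG3 (-0.97 ± 0.15) fell. The higher member was the glycosylase SMUG1 (0.70 ± 0.15), named after its value was seen. In the Fanconi anemia pathway, which removes crosslinks, 12 of 19 were lower and 2 higher (median -0.79). FANCI had 73.6 and 78.9 CPM in the combination and 221 and 252 CPM in DMSO (-1.63 ± 0.13), FANCA was at -1.75 ± 0.21, BRIP1 at -1.40 ± 0.19 and the deubiquitinase USP1 at -0.996 ± 0.14, all called lower. FANCA differed between the DMSO libraries, with 88.5 and 153 CPM, and both combination libraries were below either at 37.2 and 34.8 CPM.

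Mismatch repair had 4 of 7 members lower and 0 higher, among them PMS1 (-0.80 ± 0.16) and MSH3 (-0.70 ± 0.15). Nucleotide excision repair was divided, with 6 of 20 members higher and 4 lower (median 0.10). CETN2 had 113 and 113 CPM in the combination and 57.6 and 41.6 CPM in DMSO (1.19 ± 0.15), and ERCC6 rose by 0.65 ± 0.13, while the damage sensor DDB2 had 25.5 and 24.2 CPM in the combination and 68.1 and 75.5 CPM in DMSO (-1.53 ± 0.14) and UVSSA fell (-1.02 ± 0.20). These shares, 30% higher and 20% lower, were near those of all tested genes.

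In the DNA damage and replication checkpoint 12 of 20 members were lower and 0 higher, all 12 against each DMSO library (median -0.49). TIMELESS, which travels with the replication fork, had 9.01 and 7.55 CPM in the combination and 63.4 and 57.02 CPM in DMSO (-2.87 ± 0.16, adjusted p = 7.09e-08). Its partner in the activation of CHK1, CLSPN, had 18.5 and 21.4 CPM in the combination and 101 and 91.4 CPM in DMSO (-2.27 ± 0.14). The kinase PKMYT1 (-1.69 ± 0.17) and the phosphatase CDC25A (-1.15 ± 0.15), which act on cyclin-dependent kinases in opposite ways, both fell. MDM2, a ubiquitin ligase amplified in some glioblastomas, had 87.3 and 97.6 CPM in the combination and 191 and 150.4 CPM in DMSO (-0.88 ± 0.14, adjusted p = 0.000153).

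Genes that protect from cell death were mostly lower: 7 of 10 anti-apoptotic members fell and 2 rose (median -0.91). BIRC2 had 56.6 and 65.2 CPM in the combination and 146 and 137 CPM in DMSO (-1.22 ± 0.12, adjusted p = 5.15e-06), and the caspase inhibitor XIAP had 45.6 and 48.02 CPM in the combination and 115 and 85.4 CPM in DMSO (-1.10 ± 0.15). The 2 that rose, BCL2L1 (0.84 ± 0.15) and BCL2L2 (0.42 ± 0.12), were named after their values were seen. Of 17 pro-apoptotic genes and caspases 4 were higher, 3 of them against each DMSO library, and 4 lower, 2 of them against each (median -0.01). Their shares of 23.5% higher and 23.5% lower were near those over all tested genes, 24.3% and 23.7%. BMF, which binds and blocks BCL2 proteins, had 12.01 and 10.1 CPM in the combination and 1.72 and 1.85 CPM in DMSO (2.62 ± 0.31), and CASP2 fell (-0.92 ± 0.13).

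Of the deacetylases and sirtuins, the family that holds the targets of belinostat, 4 of 17 were higher and 3 lower (median -0.01), shares of 23.5% and 17.6% next to 24.3% and 23.7% over all tested genes. Their median was 0.01 against DMSO-1 alone and -0.15 against DMSO-2 alone. Of class I, HDAC1 had 60.7 and 63.1 CPM in the combination and 65.05 and 60.1 CPM in DMSO (-0.01 ± 0.12, adjusted p = 0.933), and HDAC2 had 131 and 130.1 CPM in the combination and 129 and 99.6 CPM in DMSO (0.19 ± 0.13, adjusted p = 0.26). HDAC2 was called higher against DMSO-2 alone (0.39) and not against DMSO-1 alone (0.01). HDAC3 was called higher, with 194 and 181 CPM in the combination and 68.5 and 64.7 CPM in DMSO (1.49 ± 0.12, adjusted p = 8.49e-07). Its groups were far apart and its replicates close. In class II, HDAC5 had 47.4 and 47.9 CPM in the combination and 19.7 and 18.5 CPM in DMSO (1.32 ± 0.15), HDAC7 fell (-0.98 ± 0.16), and HDAC6 was at -0.31 ± 0.15 (adjusted p = 0.104). HDAC6 was called lower against DMSO-2 alone (-0.47) and not against DMSO-1 alone (-0.14). Of the sirtuins, which use NAD and are not blocked by belinostat, SIRT2 rose (1.03 ± 0.16).

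Acetyltransferases and readers of acetylated histones were more often lower, 10 of 19 against 2 higher (median -0.47, -0.26 against DMSO-1 alone and -0.62 against DMSO-2 alone). Of the 10 lower calls 6 held against each DMSO library. CREBBP had 16.9 and 17.5 CPM in the combination and 44.04 and 54.1 CPM in DMSO (-1.51 ± 0.15, adjusted p = 4.8e-06), its paralog EP300 was at -0.62 ± 0.12 and KAT6B at -1.60 ± 0.17. LARP7, which holds the elongation factor P-TEFb inactive, fell (-0.81 ± 0.16). Of 22 Polycomb and DNA methylation genes 8 were lower, 5 of them against each DMSO library, and 4 higher, 3 of them against each (median -0.05). The methyltransferases DNMT1 (-1.33 ± 0.13), with 108 and 106 CPM in the combination and 243 and 293 CPM in DMSO, and EZH2 (-1.36 ± 0.14) fell, and the PRC1 subunits RING1 (1.22 ± 0.16) and PHC2 (0.74 ± 0.11) rose.

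A list of genes that deacetylase inhibitors raise in other cells had 11 of 17 members higher and 2 lower (median 0.61). The oxidoreductase gene DHRS2 had 23.7 and 23.4 CPM in the combination and 1.11 and 1.85 CPM in DMSO (3.97 ± 0.29, adjusted p = 3.23e-07), and gelsolin GSN, which severs actin filaments, had 245 and 233 CPM in the combination and 53.6 and 38.3 CPM in DMSO (2.38 ± 0.15). MT1X belongs to this list as well. Those that were lower were KLF6 (-1.52 ± 0.12), a zinc finger factor named after its value was seen, and CDKN1A. DHRS2 was lower in the combination than with belinostat alone by a log2 difference of -1.69 (adjusted p = 0.000271).

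Metallothioneins, small proteins that bind zinc and copper, rose. Of 8 tested members of their list 6 were called higher and 0 lower (median 1.77). MT1X (chr16:56682424-56684196 on GRCh38) had 488 and 502 CPM in the combination and 21.8 and 16.6 CPM in DMSO (4.69 ± 0.20, adjusted p = 4.48e-09). MT3 had 20.5 and 18.4 CPM in the combination and 2.73 and 4.68 CPM in DMSO (2.38 ± 0.27), and MT1E had 47.7 and 49.4 CPM in the combination and 12.6 and 14.1 CPM in DMSO (1.86 ± 0.20). The zinc exporter SLC30A1, which is not a metallothionein and does not resemble them in sequence, had 28.03 and 30.5 CPM in the combination and 9.797 and 8.38 CPM in DMSO (1.69 ± 0.20). The groups were separate in all 4, which were chosen as those with the smallest adjusted p of the list. MT2A (0.33 ± 0.19, adjusted p = 0.155) and the zinc sensor MTF1 (-0.06 ± 0.18, adjusted p = 0.79) were not called and were named after their values were seen. MT1X was higher in the combination than with belinostat alone by 1.25 (adjusted p = 0.00032). Metallothionein genes are similar in sequence, so the division of reads among them is uncertain.

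Metallothionein promoters are known for metal response elements, bound by MTF1, whose core reads TGCACNC or TGCGCNC. The MT1X promoter is shown with both cores in capitals on either strand, since this gene had the largest rise of its list.
MT1X: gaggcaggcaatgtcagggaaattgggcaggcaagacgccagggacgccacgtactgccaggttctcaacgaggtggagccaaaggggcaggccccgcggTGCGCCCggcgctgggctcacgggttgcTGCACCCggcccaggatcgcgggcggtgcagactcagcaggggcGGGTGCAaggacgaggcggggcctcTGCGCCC
This stretch (chr16:56682220-56682423, plus strand, RefSeq GRCh38.p14) holds 2 matches of TGCACNC and 2 of TGCGCNC. One or the other core occurred in 4 of the 5 metallothionein-list promoters at hand (80%), against 24.7% of all promoters and 33.1% of those of tested genes. It also occurred in 20 of 39 G2 and mitosis promoters (51.3%) and 14 of 35 DNA replication promoters (40%), lists that were lower. Genes called higher against each DMSO library had it in 32.8% of promoters, and those called lower in 34.1%.

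Neuronal and synaptic genes that could be tested were mostly higher. Of 46 listed genes 24 had enough counts, of which 16 were called higher and 3 lower (median 0.98). Members too low in every group are missing from this count, and those raised from a low level enter it. BEX1, a small protein of neurons, had 59.1 and 56.7 CPM in the combination and 10.4 and 9.16 CPM in DMSO (2.56 ± 0.15), and the dendritic microtubule protein gene MAP2 had 19.4 and 22.4 CPM in the combination and 4.04 and 3.704 CPM in DMSO (2.43 ± 0.23). SYP and UNC13A, among the largest rises, belong here too. SYN1 had 19 counts in the combination and 0 in DMSO, which is at least 9.25-fold higher if DMSO is set to 3 counts over its 2 libraries. The members that fell were the channel gene CACNA1A (-2.38 ± 0.27), the membrane fusion gene STX1A (-1.60 ± 0.25) and the adhesion gene NRXN2 (-0.94 ± 0.19), named after their values were seen. The sum of 6 neuron markers was 104 to 106 CPM in the combination and 51.7 to 80.6 CPM in DMSO, most of it from SNAP25. GAD1 of this set was called lower, with 8.18 and 6.02 CPM in the combination and 13.3 and 23.6 CPM in DMSO, while RBFOX3 and GAD2, markers of mature neurons, had 1 and 0 counts in the 4 libraries together.

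Cilia and axoneme genes were tested in 11 of 25 cases, with 6 higher and 1 lower (median 1.46). The dynein heavy chain DNAH7 had 24.9 and 23.3 CPM in the combination and 3.94 and 4.97 CPM in DMSO (2.43 ± 0.21, adjusted p = 1.25e-06). CFAP54 (2.22 ± 0.53) and CCDC40 (1.46 ± 0.37) stayed under 6 CPM in every library of these groups, and the call of CCDC40 was lost without combination replicate 1 (1.24). DNAH7 was lower in the combination than with belinostat alone by a log2 difference of -1.52 (adjusted p = 0.000271). Of 8 stem cell and glial genes 3 rose: nestin NES had 56.6 and 54.9 CPM in the combination and 4.95 and 5.75 CPM in DMSO (3.38 ± 0.21, adjusted p = 1.22e-07), SOX9 was at 1.72 ± 0.25 and glutamine synthetase GLUL at 1.07 ± 0.15. BMI1 was the 1 called lower (-0.47 ± 0.16) and was not called against DMSO-2 alone or without combination replicate 1 (-0.36).

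Genes of the extracellular matrix changed in both directions. In matrix assembly and hyaluronan 12 of 29 members were higher and 6 lower (median 0.14). PLOD2, which hydroxylates collagen lysines before crosslinking, had 7976 and 8374 CPM in the combination and 1899.5 and 1593 CPM in DMSO (2.23 ± 0.15, adjusted p = 2.2e-07). Fibrillin FBN1, a scaffold of elastic fibres, had 480.05 and 479 CPM in the combination and 1991 and 2057 CPM in DMSO (-2.08 ± 0.12, adjusted p = 9.23e-08). LOXL4 and HAS2, the largest changes of this list, were described above. HAS2 was at -5.31 with belinostat alone against the same DMSO libraries, and its level was higher in the combination than with belinostat by 1.69 (adjusted p = 0.000473).

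Collagen chains had 9 of 21 members lower and 5 higher, all 14 against each DMSO library (median -0.32). The fibrillar chain COL1A1 had 138 and 117 CPM in the combination and 238 and 261 CPM in DMSO (-0.97 ± 0.13), and COL16A1 was at -1.18 ± 0.17. Basement membrane chains went both ways: COL4A5 had 49.4 and 50.7 CPM in the combination and 17.6 and 21.2 CPM in DMSO (1.37 ± 0.15), and COL4A2 had 2.34 and 2.43 CPM in the combination and 12.2 and 10.7 CPM in DMSO (-2.26 ± 0.30). COL1A1 was at -0.03 with belinostat alone, and the combination was lower than belinostat by a log2 difference of -0.94 (adjusted p = 0.000338).

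Of 18 matrix proteases 8 were lower and 5 higher (median -0.10), whereas 6 of their 7 inhibitors rose and 0 fell (median 1.14). The protease median was -0.22 against DMSO-1 alone and 0.0052 against DMSO-2 alone. Urokinase PLAU, which activates plasmin, had 60.4 and 58.4 CPM in the combination and 253 and 216 CPM in DMSO (-1.98 ± 0.13), and ADAMTS5, which cuts proteoglycans, had 15.2 and 15.6 CPM in the combination and 76.3 and 68.4 CPM in DMSO (-2.23 ± 0.17). The metalloprotease inhibitor TIMP3 had 787 and 842 CPM in the combination and 207 and 142 CPM in DMSO (2.23 ± 0.17, adjusted p = 4.28e-07).

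Of 16 transcription factors linked to the mesenchymal state 4 were lower and 3 higher (median -0.25). These are 25% and 18.8%, next to 23.7% and 24.3% over all tested genes. The homeobox gene PRRX1 had 11.8 and 14.1 CPM in the combination and 119 and 98.6 CPM in DMSO (-3.06 ± 0.17, adjusted p = 6.05e-08), and the AP-1 subunit FOSL1 fell (-1.57 ± 0.13). PRRX1 was lower still with belinostat alone (-4.33 against the same DMSO libraries), and the combination exceeded belinostat by 1.27 (adjusted p = 0.000932). Among 12 targets of YAP and TEAD 6 rose and 0 fell (median 0.44). The matricellular gene CCN2 had 116 and 118 CPM in the combination and 34.04 and 32.6 CPM in DMSO (1.82 ± 0.13), and the cytokine TGFB2 had 107 and 108 CPM in the combination and 30.4 and 20.6 CPM in DMSO (2.08 ± 0.16).

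Growth factor signalling showed no single direction. EGFR, which is often amplified in glioblastoma tumours, had 259.8 and 259 CPM in the combination and 303 and 318 CPM in DMSO (-0.26 ± 0.11, adjusted p = 0.073). It was called lower against each DMSO library alone (-0.22 and -0.29) and with other filters or library size alone, but not against both libraries with the settings used here. Of 14 receptor tyrosine kinases 6 were higher and 4 lower (median 0.20), with the collagen receptor DDR1 at 94.8 and 98.7 CPM in the combination and 29.5 and 23.2 CPM in DMSO (1.88 ± 0.15). Some of these receptor calls, in both directions, did not hold against each DMSO library. In the feedback arm of the MAPK pathway 4 of 11 were higher and 3 lower (median 0.21). These are 36.4% and 27.3%, next to 24.3% and 23.7% over all tested genes. SPRY4 (-1.75 ± 0.16) and SPRY2 (-1.59 ± 0.16), inhibitors induced by the pathway, fell, and the phosphatase DUSP5 rose (1.05 ± 0.14).

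Immediate early and MYC network genes had 6 of 18 members higher and 6 lower (median -0.14). Against DMSO-1 alone the median was 0.15, and against DMSO-2 alone -0.31. MYC had 109 and 92.4 CPM in the combination and 169 and 186 CPM in DMSO (-0.82 ± 0.12, adjusted p = 0.000121), and MXI1, an antagonist of MYC, had 149 and 155 CPM in the combination and 55.4 and 39.7 CPM in DMSO (1.68 ± 0.16). The early response factor EGR1 had 49.2 and 45.1 CPM in the combination and 218 and 272 CPM in DMSO (-2.38 ± 0.25, adjusted p = 5.96e-06), while its relative EGR2 rose (1.14 ± 0.13), as did IER3 (1.25 ± 0.13). EGR1 was at -0.74 with belinostat alone and at -1.72 with AsiDNA alone against the same DMSO libraries, and the combination was lower than belinostat by a log2 difference of -1.64 (adjusted p = 0.000486).

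In TGF-beta, Notch and WNT signalling 11 of 38 members were higher and 13 lower (median -0.17). These are 28.9% and 34.2%, next to 24.3% and 23.7% over all tested genes. Their median was -0.17 against DMSO-1 alone and 0.04 against DMSO-2 alone, and that of the Notch members 0.37 and -0.97. The TGF-beta receptor TGFBR2 had 301 and 304 CPM in the combination and 102 and 85.97 CPM in DMSO (1.68 ± 0.13). NOTCH1 had 35.7 and 33.04 CPM in the combination and 101 and 109 CPM in DMSO (-1.61 ± 0.13). DACT3, a regulator of WNT signalling, had 16.2 and 16.4 CPM in the combination and 0.404 and 0 CPM in DMSO, where 1 library had no count, and its fitted change was 6.25 ± 0.47 (adjusted p = 4.46e-07).

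Hypoxia and glycolysis genes were higher. Of 24 tested members 18 were called higher and 1 lower, all of them against each DMSO library (median 0.83, 0.72 against DMSO-1 alone and 0.96 against DMSO-2 alone). The hypoxia factor HIF1A had 1843 and 1949 CPM in the combination and 828 and 675 CPM in DMSO (1.34 ± 0.14, adjusted p = 4.64e-06), and its relative EPAS1 had 1625 and 1574 CPM in the combination and 554 and 423 CPM in DMSO (1.71 ± 0.16). The stress-responsive gene NDRG1 had 4274 and 4151 CPM in the combination and 1223 and 999 CPM in DMSO (1.92 ± 0.15), and the peptide hormone gene ADM had 529 and 499 CPM in the combination and 225 and 208 CPM in DMSO (1.25 ± 0.12). The combination libraries of each gene were near each other and above both DMSO libraries, which their choice by small adjusted p favoured. CA9, a carbonic anhydrase and classic hypoxia marker, was the member that fell (-0.37 ± 0.13, adjusted p = 0.03), and VEGFA was at -0.13 ± 0.15 (adjusted p = 0.499). Both were named after their values were seen.

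Cholesterol and fatty acid synthesis had 12 of 23 members higher and 3 lower (median 0.41). The desaturase SCD had 1295 and 1309 CPM in the combination and 468 and 288 CPM in DMSO (1.78 ± 0.18, adjusted p = 4.83e-06), DHCR7 of the last steps to cholesterol was at 1.49 ± 0.20 and squalene synthase FDFT1 at 1.31 ± 0.13. SCD was lowest in DMSO-2. With belinostat alone the list median was 0.0033, and DHCR7 was higher in the combination than with belinostat by 1.61 (adjusted p = 0.000309) and SCD by 1.18 (0.000487). Genes of the mitochondrial genome had 7 of 13 members higher and 0 lower (median 0.49). MT-CO3 had 2625 and 2432 CPM in the combination and 1771 and 1362 CPM in DMSO (0.69 ± 0.16) and MT-ND3 was at 0.69 ± 0.17. MT-ATP8 had 52.2 and 27.7 CPM in the combination and 24.5 and 20.6 CPM in DMSO, and MT-ND6 had 44.4 and 25.5 CPM in the combination and 21.7 and 16.7 CPM in DMSO. Both were highest in combination replicate 1, and their calls were lost without it (0.27 for MT-ATP8 and 0.38 for MT-ND6).

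In the unfolded protein and amino acid response 6 of 20 genes were higher and 3 lower (median 0.10). These are 30% and 15%, next to 24.3% and 23.7% over all tested genes. The chaperone of the endoplasmic reticulum CALR had 2415 and 2362 CPM in the combination and 1432 and 1097 CPM in DMSO (0.92 ± 0.15), while the transcription factors ATF4 (-1.09 ± 0.19) and XBP1 (-0.91 ± 0.16) and the phosphatase subunit PPP1R15A (-0.99 ± 0.16) fell. Cytosolic and mitochondrial heat shock proteins had 5 of 19 members lower and 2 higher (median 0.02). HSP90AA1 had 945 and 884 CPM in the combination and 1860.01 and 1526 CPM in DMSO (-0.89 ± 0.14), its partner FKBP4 was at -0.70 ± 0.14 and the mitochondrial HSPD1 at -0.71 ± 0.15, and HSPB8 rose (1.21 ± 0.24).

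Genes that build ribosomes were mostly lower, and genes that make up ribosomes were mostly not called. Ribosome biogenesis had 21 of 31 members lower and 2 higher (median -0.57). Nucleolin NCL had 210.2 and 211 CPM in the combination and 661 and 535 CPM in DMSO (-1.50 ± 0.13, adjusted p = 1.44e-06), the small nucleolar ribonucleoprotein gene NOP56 was at -1.61 ± 0.15, the polymerase I factor UBTF at -1.12 ± 0.15 and TCOF1 at -0.95 ± 0.12. Ribosomal proteins had 14 of 52 members higher and 2 lower (median 0.22). The share called higher, 26.9%, was near the 24.3% over all tested genes, and 3.85% were called lower, against 23.7%. RPL38 had 282 and 301 CPM in the combination and 209 and 161 CPM in DMSO (0.66 ± 0.13, adjusted p = 0.00121), RPS18 was at 0.60 ± 0.13 and RPL11 at 0.51 ± 0.12. The median was 0.04 against DMSO-1 alone, where 12 were higher and 6 lower, and 0.40 against DMSO-2 alone, where 41 were higher and 2 lower. Scaling by library size alone put it at 0.04 as well. With belinostat alone the ribosomal protein median was -0.58 against the same DMSO libraries. The combination was higher than belinostat in 50 of the 52 genes and lower in 0, next to 22% and 21.4% of all tested genes. Pseudogenes of ribosomal protein genes may take some of their reads.

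SR and hnRNP splicing factors were lower in 21 of 24 cases and higher in 1 (median -0.63). Not all of the lower calls held against each DMSO library. SRSF7 had 60.1 and 66.5 CPM in the combination and 139 and 139 CPM in DMSO (-1.13 ± 0.12, adjusted p = 6.06e-06). HNRNPA2B1 had 313 and 289 CPM in the combination and 573 and 561 CPM in DMSO (-0.91 ± 0.12), HNRNPD was at -1.22 ± 0.15 and HNRNPH1 at -0.91 ± 0.13. The higher member was SRSF9 (0.55 ± 0.13), named after its value was seen. The proteins of paraspeckles, nuclear bodies built on NEAT1, had 5 of 6 members lower (median -0.94). The RNA-binding proteins RBM14 (-1.09 ± 0.15), SFPQ (-0.83 ± 0.12) and MATR3 (-1.06 ± 0.19) fell. MATR3 has 2 identifiers in the table, so its reads may be divided.

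The nuclear RNA MALAT1 had 22137 and 15162 CPM in the combination and 5393 and 12377 CPM in DMSO (1.07 ± 0.30, adjusted p = 0.0097). It was called against each DMSO library, at 1.79 against DMSO-1 alone and 0.59 against DMSO-2 alone, and was not called without combination replicate 1 (0.73) or in a fit of the combination and DMSO libraries alone (1.01, adjusted p = 0.071). By gene type, 3249 of 11999 protein-coding genes were higher and 3039 lower (median 0.01). Of 600 long intergenic RNAs 109 were higher and 93 lower, and of 650 antisense RNAs 109 and 83. These were 18.2% and 15.5% of the first and 16.8% and 12.8% of the second, below the 24.3% and 23.7% of all tested genes. No source used here says whether counting used the strand of the reads, so values of antisense genes are uncertain. Of 53 small nucleolar RNAs 0 were higher and 24 lower, 18 against each DMSO library (median -1.20). The lower share was 45.3%, next to 23.7% of all tested genes. The median was -0.93 against DMSO-1 alone and -1.41 against DMSO-2 alone. Whether reads of host genes, the limit given above for SNORD12B, enter the values of these small RNAs was not tested. Of 252 sense-intronic genes 5 were higher (1.98%) and 42 lower (16.7%), both below the shares of all tested genes. Their median of -0.58 was -0.0024 against DMSO-1 alone and -0.998 against DMSO-2 alone.

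Immune genes went both ways. The immune cell markers PTPRC, CD3E and LYZ were at 0 in these libraries. Interferon-stimulated genes had 7 of 12 members lower and 3 higher (median -0.99). Some of these calls, in both directions, did not hold against each DMSO library. OAS3 had 2.84 and 3.07 CPM in the combination and 15.9 and 10.1 CPM in DMSO (-2.12 ± 0.30) and IFI44L was at -1.44 ± 0.23, while OASL had 24.4 and 30.3 CPM in the combination and 6.67 and 5.65 CPM in DMSO (2.15 ± 0.20) and IFI6 rose by 1.52 ± 0.23. Sensors and transcription factors of that response had 4 of 12 higher and 3 lower (median -0.02). These are 33.3% and 25%, next to 24.3% and 23.7% over all tested genes. Of 14 genes of HLA class I and peptide loading 4 were lower and 1 higher (median -0.07), with the peptidase ERAP1 at -1.38 ± 0.13. The lower share, 28.6%, stood next to 23.7% over all tested genes, and the higher share, 7.14%, next to 24.3%. Ligands of immune checkpoints and of the NKG2D receptor had 7 of 13 members higher and 1 lower (median 0.81). Besides VSIR, the NKG2D ligand MICA had 107 and 107 CPM in the combination and 28.7 and 34.8 CPM in DMSO (1.75 ± 0.14), and NECTIN2 had 122 and 109 CPM in the combination and 56.4 and 45.1 CPM in DMSO (1.19 ± 0.14). MICB, the close relative of MICA, was the member that fell (-1.99 ± 0.33, adjusted p = 0.000258), named after its value was seen. Reads of the pair may be shared.

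Inflammatory genes had 8 of 20 members lower and 6 higher (median -0.36). IL11, one of the largest falls, stood beside rises of the chemokine CCL20, with 29.2 and 32.9 CPM in the combination and 2.93 and 2.73 CPM in DMSO (3.45 ± 0.23), and of IL1A, with 20.5 and 24.2 CPM in the combination and 2.42 and 2.34 CPM in DMSO (3.23 ± 0.24). NFKB1, a subunit of the transcription factor that controls many of these genes, fell (-1.35 ± 0.14, adjusted p = 6.97e-06).

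For some genes the direction depended on the DMSO library and on the fit. Against DMSO-1 alone 56 genes were called higher that were called lower against DMSO-2 alone, and 34 showed the reverse; 0 of these 90 were called against both libraries together. The 6 with the largest difference and a mean log2 CPM of at least 4 were all of the first kind. NEAT1, the RNA that builds paraspeckles (chr11:65422774-65445540 on GRCh38), had 11313 and 6837 CPM in the combination and 3536 and 12919.8 CPM in DMSO. Both combination libraries lay between the DMSO libraries, so that the change was 1.36 against DMSO-1 alone, -0.51 against DMSO-2 alone and 0.14 ± 0.41 against both (adjusted p = 0.798). Of these, only the fit against both carries the spread between the DMSO libraries, pooled with the smaller spread of the other groups. MAPK8IP3, a scaffold for transport and JNK signalling, had 58.9 and 56.2 CPM in the combination and 29.1 and 82.9 CPM in DMSO. TPM2, a tropomyosin of muscle and stress fibres, had 29.03 and 22.8 CPM in the combination and 14.7 and 38.7 CPM in DMSO, and the kinase gene DMPK had 30.5 and 22.3 CPM in the combination and 18.6 and 46.7 CPM in DMSO. CDK5RAP3 and PRSS53 showed the same order of libraries. The sense-intronic share of DMSO-2 was 0.113%, above the combination and DMSO-1, and the belinostat libraries were higher still at 0.128% and 0.142%. In a fit with that share as a term, chosen after seeing the data, all 6 genes were called higher, NEAT1 at 1.68, MAPK8IP3 at 1.14, CDK5RAP3 at 0.98, PRSS53 at 1.22, TPM2 at 1.03 and DMPK at 0.72 (adjusted p between 4.61e-18 and 0.000524). The genes were chosen by their gap between the DMSO libraries, and the share differs most within that pair (0.0570% and 0.113%). This fit therefore cannot decide their direction. All 6 were lower in the combination than with belinostat alone, by log2 differences between -2.51 and -1.47 (adjusted p between 0.000714 and 0.00266).

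**Figure D5:**
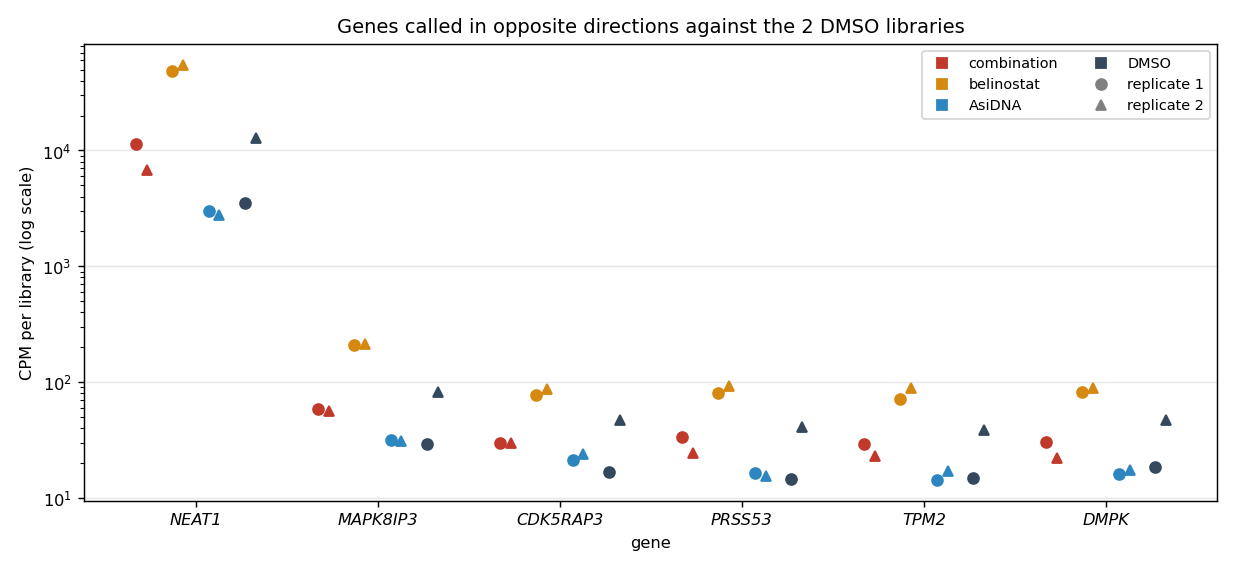
Level in CPM on a log axis of the 6 genes called in opposite directions against DMSO-1 alone and DMSO-2 alone, in each of the 8 libraries, with circles for replicate 1 and triangles for replicate 2. In each gene the combination libraries lie between the low DMSO-1 and the high DMSO-2, and the belinostat libraries lie above all others.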

How the data were processed

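Total RNA of U87 cells was sequenced after removal of ribosomal RNA, with a stranded library kit, per the labels' protocols. The deposited table holds raw read counts per Ensembl gene, which the authors made by trimming with cutadapt 1.16, aligning with STAR 2.7.0 and counting with featureCounts 1.6.3 of the Subread package on GRCh38, per the submitters' processing notes. The strand setting is not given in the sources used here. Positions and gene types are those of GENCODE 29, and gene names come from the reference tables, which gave a symbol to 42371 of the 58884 genes; of these genes, 31321 had no count in the combination and DMSO libraries.

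All 8 libraries were fitted together in edgeR 4.0.16 (R 4.3.3) with 1 mean per group, TMM factors and the default filter on low counts, which left 14741 genes. The combination was tested against DMSO with the quasi-likelihood F-test and Benjamini-Hochberg adjustment at 0.05. In a fit with 1 DMSO library left out, the lone library is assumed to vary like the other groups, and the common dispersion falls to 0.0036, against 0.014 with both. Fold changes carry standard errors derived from the F statistic. Intervals and floors of 3 counts cover counting error only. The steps were tested on simulated counts with few changed genes and the same spread in every group. These data differ in both points, so the simulation does not test the scaling or the error rate here. RLE factors, library size alone, DESeq2 1.42.0, other filters, a replicate block and leaving out each library were tried as alternatives.

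The groups compared, the gene lists and the alternatives were chosen with earlier results of these data known. The text names the 12 largest rises and falls among genes with a mean log2 CPM of at least 2 that were called with both and with each DMSO library and did not overlap; up to 4 genes per list with the smallest adjusted p; a fixed set of deacetylase, repair and growth genes; the 6 genes of opposite calls; and genes with at most 3 counts in DMSO and at least 100 in the combination. Genes outside it are marked as chosen after their values were seen. Some genes and 1 list that this rule names are not reported here.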

Additional observations from a re-analysis of the deposited data

How the results depend on the processing

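The 3586 higher and 3498 lower genes stayed within 1.5 times under RLE factors, library size alone, DESeq2, no filter, a filter of 1 CPM in 2 libraries, the 4 compared libraries alone, without the 10 most abundant genes, at an adjusted p under 0.01 and in a fit with a term for the sense-intronic share, chosen after seeing the data. A limit of at least 2-fold left 1565 higher and 1677 lower genes, and the 5955 genes called against each DMSO library fell to 2273 when all 3 comparisons had to reach it. Leaving out each library in turn gave 2300 to 4437 higher and 2568 to 4244 lower genes, and leaving out each combination library gave 4741 to 4972 genes called against each DMSO library, next to 5955 with both. Same-numbered libraries did not deviate together (correlations of deviations from -0.2 to 0.14). With 2 libraries per group this cannot settle whether the numbers pair them. A replicate block gave 3529 higher and 3437 lower genes, and the crossed block, chosen after seeing the data, 3721 and 3634.

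The reversed values belong to genes that were not called. Leaving out each library in turn gave -0.10 to 0.044 for HDAC1, -0.30 to 0.26 for XRCC6, -0.51 to 1.36 for NEAT1, -0.53 to 0.98 for MAPK8IP3, -0.67 to 0.82 for CDK5RAP3, -0.53 to 0.96 for PRSS53, -0.59 to 0.80 for TPM2 and -0.84 to 0.49 for DMPK. The fit with the sense-intronic term gave -0.032 for HDAC2, 0.98 for CDK5RAP3, 1.03 for TPM2 and 0.72 for DMPK. Library size alone gave -0.087 for NEAT1, -0.18 for MAPK8IP3 and -0.18 for PRSS53. For MAPK8IP3 no filter gave -0.054, the 1 CPM filter -0.0055, the 4 libraries alone -0.018 and leaving out the 10 most abundant genes -0.019; for PRSS53 these were -0.059, -0.0099, -0.019 and -0.024. TPM2 was at 0.025 with the replicate block and 0.029 with the crossed block. Calls of named genes lost under a setting were those of CDKN1A without DMSO replicate 1 or either combination replicate, CDKN1B as given above, MALAT1, BMI1 and MT-ATP8 with the 4 libraries alone and without combination replicate 1, MT-ND6 and CCDC40 without combination replicate 1, BMI1 also without DMSO replicate 1 and MT-ND6 with library size alone. Genes not called that passed the threshold under a setting were XRCC5, EGFR, HDAC6, PRKDC and CDKN2D, all lower, with library size alone, XRCC5, EGFR and HDAC6 with no filter, and XRCC5 and EGFR with the 1 CPM filter and without the 10 most abundant genes; with the sense-intronic term XRCC5, XRCC6, PRKDC and CDKN2D passed as lower, and XRCC5 with the crossed block. The cause was not tested. Of 199 named genes, RLE factors left all on the same side of the threshold in the same direction, and so did the replicate block for 198. Depth limits genes near the floor of 3 counts, such as SYN1, DNAI1 and GPRIN3.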
